A study of Mus musculus with 16 samples.

Results

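The 9 genes described here, Mbp, Mobp, Mag, Mog, Cnp, Ermn, Cldn11, Ugt8a and Mal, encode proteins of myelin and of the oligodendrocytes that make it. They were chosen by symbol among the 43472 gene symbols of the count tables, and all 9 were found with at least 1 read. The study set 2 mouse models against their own wild types in 16 brain libraries. There were 4 libraries of PWS-IC deleted mice, which lack the centre that controls imprinting in the Prader-Willi region, and 4 of wild types kept as their controls. A further 4 came from Prepl knockout mice, which lack a serine hydrolase whose loss causes a congenital myasthenic syndrome in people, and 4 from wild types kept as controls for that line. The study asked whether both models change similar metabolic pathways. No treatment was given, and the labels name tissue and genotype without allele, strain, age or brain region. Since they do not say whether each replicate came from its own animal, the p-values below refer to the spread between these libraries, which may in part be technical.

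Myelin is a stack of membrane that oligodendrocytes wrap round axons in the brain and Schwann cells in nerves, and it speeds conduction and feeds the axon. Oligodendrocytes arise from progenitors that carry Pdgfra and Olig2, stop dividing, pass through a premyelinating stage marked by Bcas1 and Enpp6, and then switch on the myelin genes under Sox10 and Myrf. In mice most of this switch takes place in the first weeks after birth, so levels of these genes differ with age and region. In whole tissue, fewer oligodendrocytes and less RNA per oligodendrocyte cannot be told apart.

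The promoters of the 3 genes that passed the test in a comparison below, and of Mobp, which passed once the filter on low counts was dropped, are shown. Marked are letters that lineage factors are known to bind and the GC box, which is not particular to this lineage. They are the RefSeq windows of 300 bases around the start in GRCm38.p6, written 5′ to 3′ along the gene. Windows of 8 of the 9 genes were read, all but Mbp, and Mag is shown by the first of its 3. Capitals mark matches on either strand to AACAAT or AACAAAG (SOX factors), CTGGCAC or CTGGTAC (MYRF) and GGGCGG (GC box).
Cnp (chr11:100574689-100574988, + strand): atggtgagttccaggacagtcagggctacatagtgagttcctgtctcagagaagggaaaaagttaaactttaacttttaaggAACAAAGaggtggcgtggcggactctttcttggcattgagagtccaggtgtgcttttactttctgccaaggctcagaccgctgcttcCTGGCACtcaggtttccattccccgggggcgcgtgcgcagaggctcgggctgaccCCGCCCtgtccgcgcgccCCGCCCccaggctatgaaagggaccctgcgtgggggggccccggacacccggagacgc
Mag (chr7:30914814-30915113, - strand): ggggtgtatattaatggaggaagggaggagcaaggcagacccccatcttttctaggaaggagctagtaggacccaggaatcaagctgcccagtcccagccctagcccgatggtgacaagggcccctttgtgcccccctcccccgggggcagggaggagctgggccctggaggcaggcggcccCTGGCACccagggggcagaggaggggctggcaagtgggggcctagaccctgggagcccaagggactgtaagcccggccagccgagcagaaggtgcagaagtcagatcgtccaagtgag
Cldn11 (chr3:31149670-31149969, + strand): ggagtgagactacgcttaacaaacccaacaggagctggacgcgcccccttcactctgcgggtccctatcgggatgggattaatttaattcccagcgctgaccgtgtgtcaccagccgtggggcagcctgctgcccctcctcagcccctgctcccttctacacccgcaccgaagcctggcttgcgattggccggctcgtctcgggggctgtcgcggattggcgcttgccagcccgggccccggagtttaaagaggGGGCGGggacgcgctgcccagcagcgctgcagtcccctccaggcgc
Mobp (chr9:120149492-120149791, + strand): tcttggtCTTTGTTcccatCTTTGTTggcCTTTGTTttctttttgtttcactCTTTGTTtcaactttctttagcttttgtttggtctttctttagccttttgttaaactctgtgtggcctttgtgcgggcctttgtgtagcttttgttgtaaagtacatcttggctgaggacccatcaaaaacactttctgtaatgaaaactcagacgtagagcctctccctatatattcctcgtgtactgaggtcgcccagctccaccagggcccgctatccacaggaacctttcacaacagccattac
The Cnp window held 1 SOX, 1 MYRF and 2 GC box matches, the Mag window 1 MYRF match, the Cldn11 window 1 GC box and the Mobp window 4 SOX matches, all of them CTTTGTT, the reverse complement of AACAAAG. Over 32851 promoters of the same length, 15.7% held a SOX match, 7.10% a MYRF match and 35.7% a GC box. Neither CAGCTG, an E-box bound by OLIG factors (16.3% of promoters), nor TATAAA (13.6%) was found in the windows of these 4 genes. Of the windows not shown, that of Ugt8a held 3 GC boxes, that of Mog 1 MYRF match, and those of Ermn and Mal 0 matches to any of these letters. The second Mag window held 1 MYRF match and the third 0. A match describes the letters and not binding.

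Reads in genes numbered 3477624 to 5852716 per library. The targeted genes fitted the labels: Prepl was at 1.64 CPM in the knockouts against 34.8 CPM in their wild types, where CPM is a count scaled by the reads in genes of its library, and Ndn and Snrpn of the Prader-Willi region fell in the PWS-IC deleted brains by 6.94 and 3.54 on the log2 scale. Reads aligned outside genes made up 17.7% to 20.1% in PWS-IC deleted brains, 11.4% to 13.7% in PWS-IC wild types, 16.1% to 19.2% in Prepl knockouts and 15.98% to 19.6% in Prepl wild types. By Xist and Y-linked reads, both PWS-IC groups held 2 males (replicates 1 and 2) and 2 females, the Prepl knockouts 4 males, and the Prepl wild types 3 females and 1 male (replicate 4).

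Neuronal markers, checked for the brain label, summed over 12 genes to 5029 to 5881 CPM per library. Levels differed widely among early and among late genes of the oligodendrocyte lineage. Olig1, a transcription factor of the whole lineage, averaged 100.1 ± 6.23 CPM in PWS-IC deleted brains, 105 ± 5.74 CPM in PWS-IC wild types, 115 ± 11.8 CPM in Prepl knockouts and 121 ± 13.4 CPM in Prepl wild types (SD, n = 4 each). The progenitor receptor Pdgfra averaged 35.4 ± 6.64 CPM in PWS-IC deleted brains, 40.7 ± 4.03 CPM in PWS-IC wild types, 38.4 ± 1.45 CPM in Prepl knockouts and 41.5 ± 3.18 CPM in Prepl wild types. Other early genes lay on both sides of Pdgfra. Over the group means, the premyelinating marker Enpp6 was at 0.641 to 2.60 CPM. Vcan and Fyn, of the progenitor and premyelinating list, were at 104 to 146 CPM and 337 to 383 CPM. Of the late genes, Mbp averaged above Pdgfra in all 4 groups (44.1 to 58.4 CPM), while Opalin had 3 reads in all 16 libraries, the oligodendrocyte protease Klk6 had 0, and Mog, a late marker of mature oligodendrocytes, had 6. The 9 genes together summed to 79.7 to 102 CPM in PWS-IC deleted brains, 99.6 to 106 CPM in PWS-IC wild types, 98.2 to 139 CPM in Prepl knockouts and 111 to 159 CPM in Prepl wild types. Schwann cell markers were low, with a sum over 6 genes of 1.33 to 7.19 CPM per library and Pmp2 at 0 reads in every library.

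**Figure D1:**
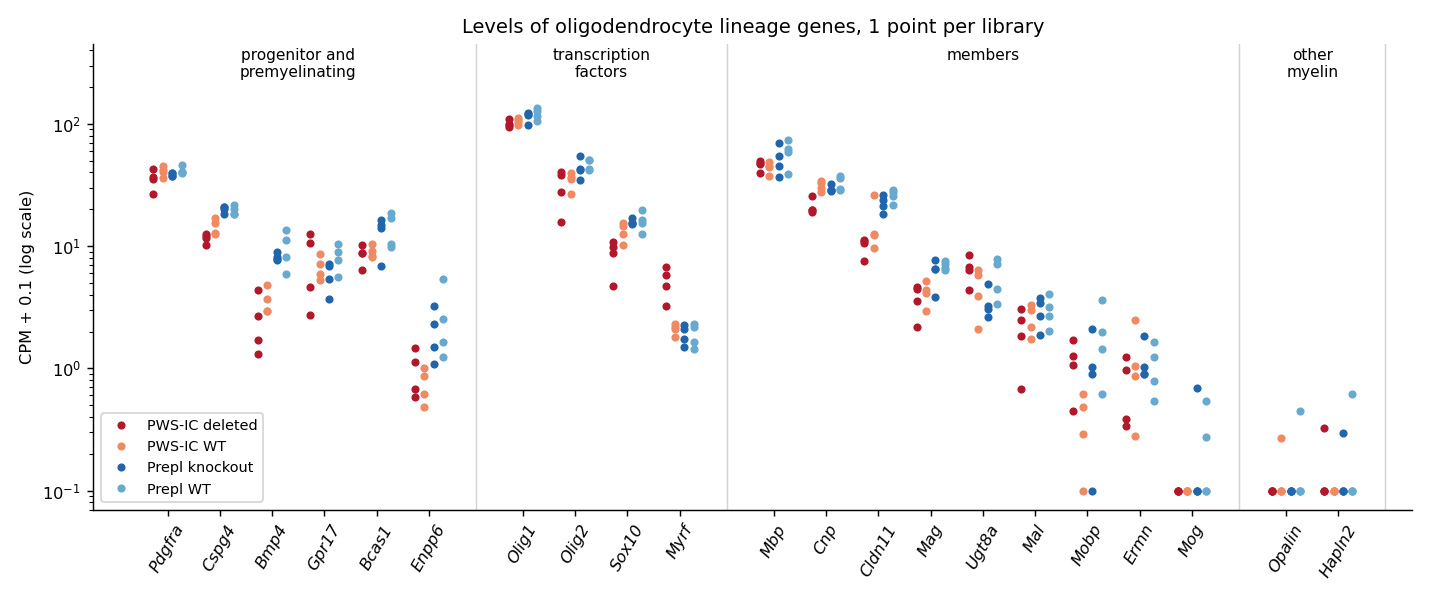
Levels of oligodendrocyte lineage genes as CPM plus 0.1 on a log axis, 1 point per library, for progenitor and premyelinating genes, transcription factors, the 9 genes described here (headed members) and other myelin genes. Olig1 and Pdgfra lie within a narrow band in all 16 libraries, Mbp is the highest of the 9 genes, and Mog and Opalin sit at the bottom of the axis.

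Among the 9 genes, 6 had enough reads to be tested in every comparison (Mbp, Cnp, Cldn11, Mag, Ugt8a and Mal). Mbp, Cnp and Cldn11 carried 4057, 2357 and 1531 reads over the 16 libraries, Mag 422, Ugt8a 396 and Mal 209. Mobp and Ermn had 79 reads each and Mog 6, and these 3 genes did not pass the filter on low counts. By average log2 CPM, Mbp stood above 72.6% of all genes tested, Cnp above 58.9%, Cldn11 above 47.8% and Mal above 10.02%, on a kit that reads transcript ends, so that counts do not grow with transcript length.

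**Figure D2:**
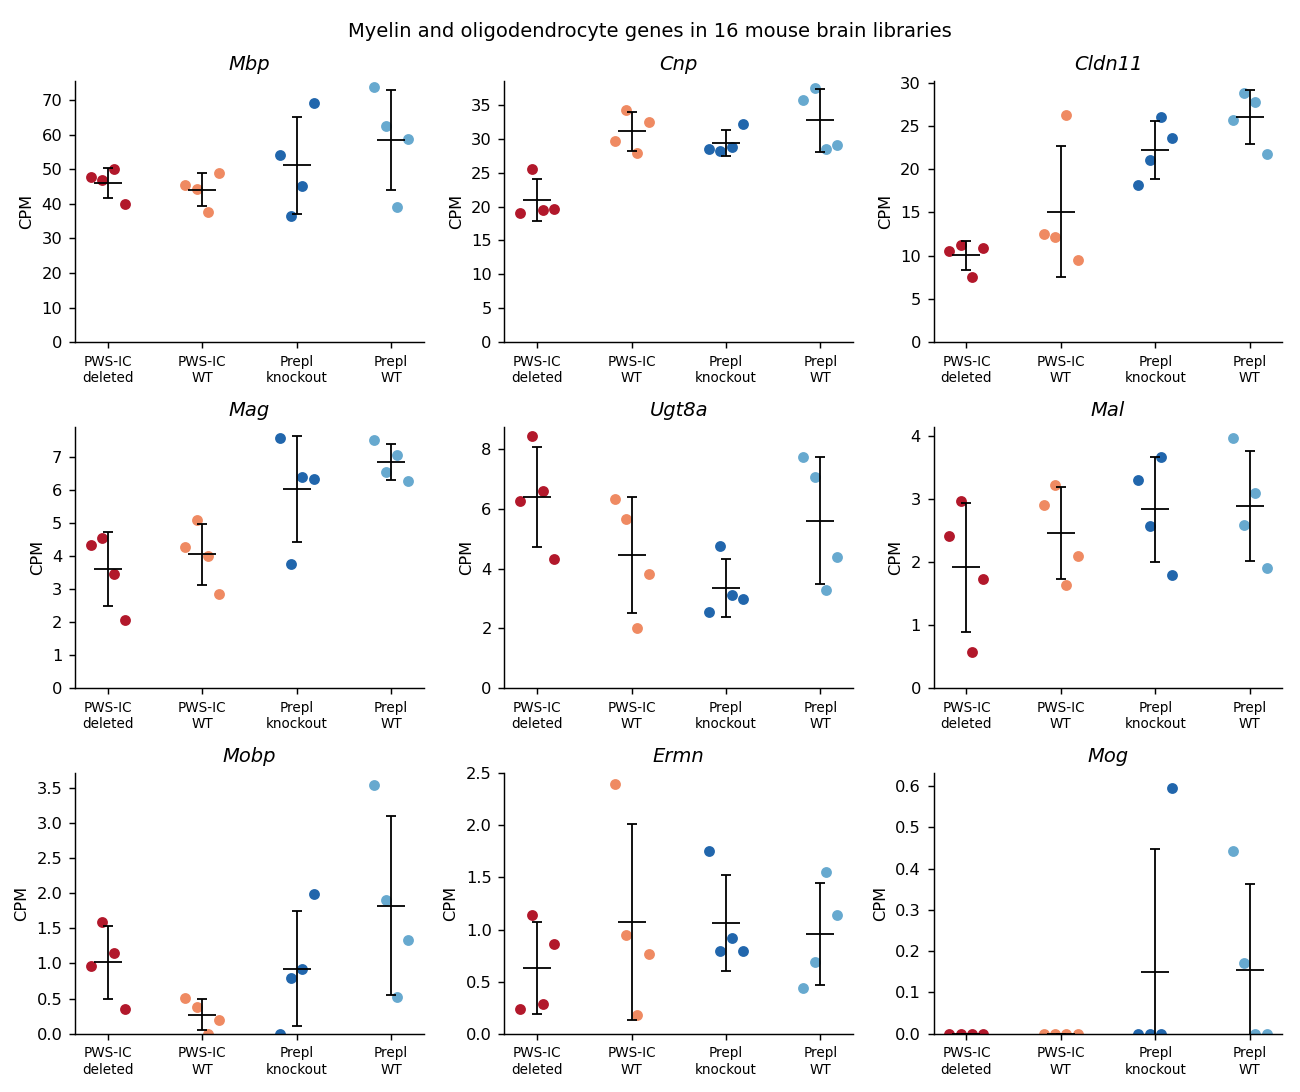
CPM of each of the 9 genes in every library (points), with the mean (long bar) and SD (whiskers) of 4 libraries per group. Cnp is lower in all 4 PWS-IC deleted libraries than in the other 12, and Cldn11 of the PWS-IC wild types is spread by replicate 3 at 26.2 CPM. The share of all genes with such a gap of 4 libraries from the other 12 was not computed.

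Loss of the Prader-Willi imprinting centre went with lower Cnp. Cnp encodes 2′,3′-cyclic nucleotide 3′-phosphodiesterase, an enzyme of the cytoplasmic channels of myelin, and lies on chromosome 11 (mm10, 100574904 to 100591729). It was at 19.0, 25.5, 19.6 and 19.7 CPM in PWS-IC deleted replicates 1 to 4, against 29.7, 34.3, 27.8 and 32.6 CPM in PWS-IC wild types. The highest deleted library lay below the lowest wild type, so the groups did not overlap. Cnp fell to 20.9 ± 3.08 CPM in deleted brains, against 31.1 ± 2.86 CPM in wild types (SD, n = 4), a log2 fold change of -0.56 with a standard error of 0.142 (edgeR quasi-likelihood F-test, adjusted p = 0.0267 after Benjamini-Hochberg correction, BH). It was the called gene among the 6 tested, in a comparison that called 4.52% of all genes, 1.55% as lower, and in which 11.8% of all genes did not overlap between groups.

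That call was not kept in every fit: dropping a library ended it in 5 of 8 cases. The adjusted p was 0.0547 or 0.0727 when wild-type replicate 2 or 4 was dropped and 0.0762, 0.0744 or 0.0706 for deleted replicate 1, 3 or 4, with the log2 fold change between -0.68 and -0.50 in all 8 cases. The end of Cnp shares 154 exon bases with Dnajc7, a co-chaperone gene on the opposite strand, and the strand setting of the counting is not given in the sources used here. Dnajc7 moved the other way, at 172, 151, 173 and 184 CPM in deleted brains against 129, 125, 135 and 131 CPM in wild types (log2 0.39 ± 0.0822; edgeR quasi-likelihood F-test, BH-adjusted p = 0.00822). Whether reads passed between these genes was not tested.

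Cldn11 encodes claudin-11, which forms the tight junctions between myelin layers and is also made by barrier cells of the meninges. It was at 10.6, 11.2, 7.48 and 10.9 CPM in PWS-IC deleted brains, against 12.5, 12.1, 26.2 and 9.52 CPM in PWS-IC wild types. Wild-type replicate 3 stood apart, and the groups overlapped through wild-type replicate 4. The log2 fold change was -0.56 ± 0.261 and did not pass the test (95% interval -1.11 to -0.02; edgeR quasi-likelihood F-test, BH-adjusted p = 0.253), and it was -0.17 without wild-type replicate 3. Meningeal fibroblast genes differed between the same libraries: all 8 were below 0 and 5 were called lower, beside 1.55% of all genes. Their sums were 303 to 329 CPM in deleted brains and 511, 606, 656 and 392 CPM in wild-type replicates 1 to 4. Replicate 3 was the highest and replicate 4 the lowest in both Cldn11 and these sums, while replicates 1 and 2 changed places. The part of meningeal tissue in the Cldn11 values was not tested.

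Mbp encodes myelin basic protein, which holds the cytoplasmic faces of compact myelin together. It was at 47.6, 46.7, 50.0 and 39.9 CPM in PWS-IC deleted brains, against 45.4, 44.3, 37.7 and 48.9 CPM in PWS-IC wild types. The groups lay over each other, and the interval of the difference ran from -0.18 to 0.31 around a log2 fold change of 0.06 (edgeR quasi-likelihood F-test, BH-adjusted p = 0.839). Mag, the myelin-associated glycoprotein of the innermost myelin layer that faces the axon, was at 4.33, 4.56, 3.45 and 2.07 CPM in deleted brains and 4.27, 5.11, 4.00 and 2.86 CPM in wild types. Its log2 fold change was -0.19 (95% interval -0.87 to 0.49). With these few reads the interval ran from -45.4% to 40.8% of the wild-type level.

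The lipid genes did not pass either. Ugt8a makes galactosylceramide, the main glycolipid of myelin, and was at 6.26, 8.44, 6.61 and 4.31 CPM in PWS-IC deleted brains against 6.32, 5.68, 2.00 and 3.81 CPM in wild types. Its mean was higher in deleted brains, through overlapping libraries, at a log2 fold change of 0.51 ± 0.327 (95% interval -0.18 to 1.19; edgeR quasi-likelihood F-test, BH-adjusted p = 0.445). Mal, a membrane protein that sorts such lipids, ranged from 0.575 to 2.96 CPM in deleted brains and from 1.64 to 3.22 CPM in wild types, with a log2 fold change of -0.33 (95% interval -1.21 to 0.56). Over the 6 genes the median log2 fold change was -0.26, with 2 above and 4 below 0, beside -0.01 over all genes tested.

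Elsewhere in the lineage, Myrf and Nfasc passed the test in PWS-IC deleted brains. Myrf, the transcription factor that switches on myelin genes, rose to 3.13, 6.61, 5.75 and 4.66 CPM in deleted brains, against 2.22, 2.08, 2.00 and 1.71 CPM in wild types (log2 1.32 ± 0.328; edgeR quasi-likelihood F-test, BH-adjusted p = 0.0247). No library of the deleted group reached down to a wild type. Nfasc, whose neurofascin joins axon and myelin beside the node of Ranvier and which neurons also express, fell to 66.6 ± 9.53 CPM in deleted brains, against 88.4 ± 5.99 CPM in wild types (log2 -0.40 ± 0.105; edgeR quasi-likelihood F-test, BH-adjusted p = 0.0331). Dropping a library ended the Myrf call in 4 of 8 cases (wild-type replicates 3 and 4, deleted replicates 2 and 3; adjusted p up to 0.0888). It ended the Nfasc call in 5 of 8 (wild-type replicates 3 and 4, deleted replicates 2, 3 and 4; adjusted p up to 0.104).

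Counted by list, 1 of 13 tested structural myelin genes other than the 9 passed as lower (Nfasc), and 1 of 10 lineage transcription factors as higher (Myrf), beside 2.96% of all genes called higher. The other mature oligodendrocyte genes (0 of 14), myelin lipid synthesis genes (0 of 13) and progenitor and premyelinating genes (0 of 13) gave no call with edgeR's quasi-likelihood test, and 3, 1 and 3 of them had an unadjusted p under 0.05. List medians lay between -0.20 and -0.04 on the log2 scale. Sox10, which acts with Myrf, was at 8.41 ± 2.67 CPM in deleted brains and 13.1 ± 2.31 CPM in wild types and did not pass (log2 -0.61 ± 0.232; edgeR quasi-likelihood F-test, BH-adjusted p = 0.152). Choroid plexus (3 of 7) and blood genes (4 of 5) were called lower in the same libraries, with blood sums of 1203 to 1629 CPM in deleted brains against 1796 to 3970 CPM in wild types and choroid plexus sums of 432 to 1752 CPM against 1440 to 2214 CPM. Their part in the lineage results, and that of the reads outside genes, was not tested.

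**Figure D3:**
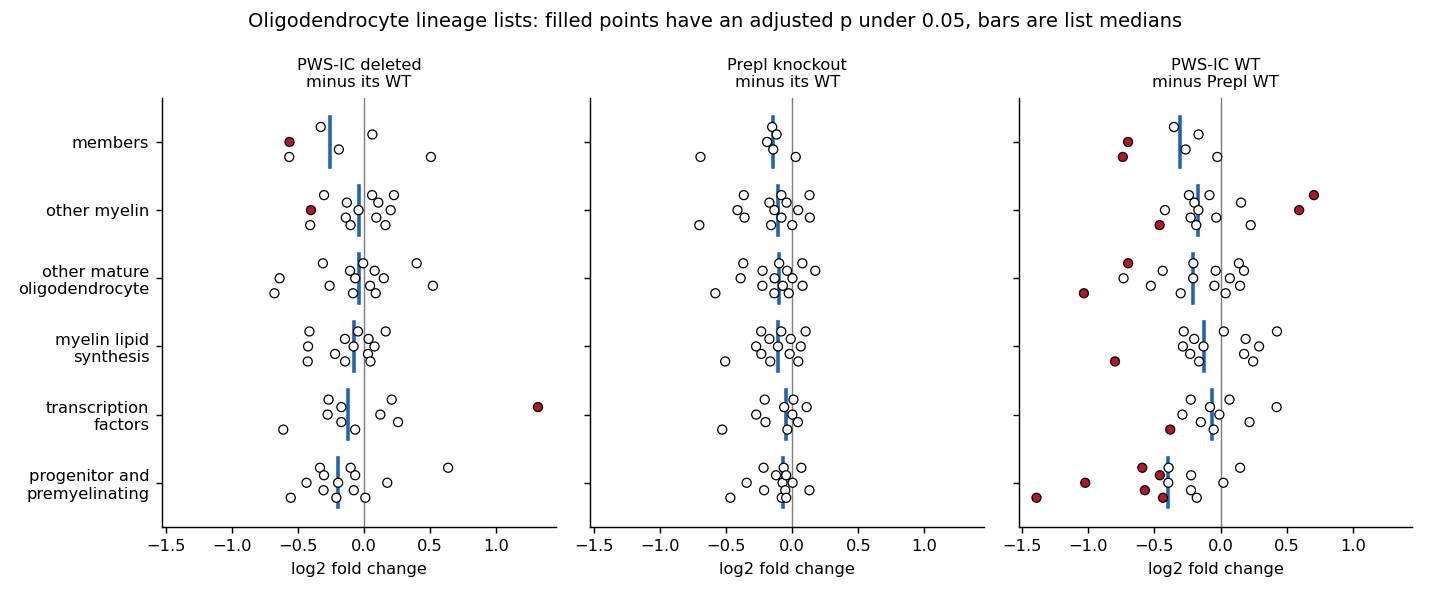
Log2 fold changes of tested genes in 6 oligodendrocyte lineage lists, the 9 genes headed members, for PWS-IC deleted minus its wild types (left), Prepl knockout minus its wild types (middle) and PWS-IC wild types minus Prepl wild types (right); filled points have an adjusted p under 0.05 and bars are list medians. Filled points number 3 on the left, 0 in the middle and 15 on the right.

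Loss of Prepl gave no call among the 9 genes. With edgeR's quasi-likelihood test 0 of 6 passed and 1, Ugt8a, had an unadjusted p under 0.05; DESeq2 also called 0, in a comparison where edgeR called 0.262% of all genes and 5.69% did not overlap between groups. Ugt8a was at 2.53, 4.76, 3.12 and 2.98 CPM in Prepl knockouts, against 7.74, 7.06, 3.28 and 4.38 CPM in Prepl wild types. Knockout replicate 2 lay above the lower pair of wild types, so the groups overlapped. The log2 fold change was -0.69 ± 0.306 (95% interval -1.33 to -0.06; edgeR quasi-likelihood F-test, BH-adjusted p = 0.487). All 4 knockouts were male, as was 1 of their wild types. With a sex term in a fit of all 16 libraries the value was -1.05 (adjusted p = 0.247).

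Mbp was at 54.1, 36.3, 45.1 and 69.1 CPM in Prepl knockouts, against 73.6, 62.5, 39.0 and 58.7 CPM in Prepl wild types. Both groups spread widely, with an SD of 14.0 CPM in knockouts and 14.4 CPM in wild types, and the log2 fold change was -0.15 (95% interval -0.48 to 0.17). Cnp was nearly level across the knockouts at 28.4, 28.2, 28.8 and 32.2 CPM, against 35.8, 37.5, 28.5 and 29.1 CPM in wild types, where replicates 1 and 2 were the higher pair. The log2 fold change of Cnp was -0.12 (95% interval -0.36 to 0.12). That interval runs from -22.0% to 8.85% of the wild-type level.

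Cldn11 was at 18.1, 21.0, 26.04 and 23.6 CPM in Prepl knockouts and 25.6, 28.8, 27.8 and 21.7 CPM in Prepl wild types, which overlapped (log2 -0.19, 95% interval -0.47 to 0.09). Mag was at 7.60, 3.77, 6.42 and 6.35 CPM in knockouts and 7.51, 6.55, 7.07 and 6.29 CPM in wild types, with knockout replicate 2 low and the rest close together (log2 -0.14, 95% interval -0.62 to 0.33). Mal ranged from 1.79 to 3.67 CPM in knockouts and from 1.90 to 3.98 CPM in wild types (log2 0.03, 95% interval -0.66 to 0.71). The median over the 6 genes was -0.15, with 1 above and 5 below 0, beside 0.00 over all genes tested. No gene of the other 5 lineage lists was called with edgeR's quasi-likelihood test: 0 of 14 structural, 0 of 15 other mature, 0 of 13 lipid synthesis, 0 of 10 transcription factor and 0 of 14 progenitor and premyelinating genes. Of these, 3, 2, 2, 0 and 1 had an unadjusted p under 0.05, and list medians lay between -0.11 and -0.05.

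Between the 2 wild-type groups, 2 of 6 genes, Mag and Cldn11, were lower in PWS-IC wild types than in Prepl wild types, in a comparison where 23.8% of all genes were called (1624 as higher and 1651 as lower of 13756) and 24.7% did not overlap between groups. Mag was at 2.86 to 5.11 CPM in PWS-IC wild types and 6.29 to 7.51 CPM in Prepl wild types. The groups did not overlap, and the log2 fold change was -0.70 ± 0.250 (edgeR quasi-likelihood F-test, BH-adjusted p = 0.0452). Cldn11 averaged 15.1 ± 7.54 CPM in PWS-IC wild types and 25.97 ± 3.12 CPM in Prepl wild types (log2 -0.74 ± 0.211; edgeR quasi-likelihood F-test, BH-adjusted p = 0.0133). Of its PWS-IC wild types 3 lay below every Prepl wild type and replicate 3 lay among them; without that library the log2 fold change was -1.13.

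Both calls depended on the libraries used, and that of Mag also on the settings. Mag lost its call in 7 of 8 cases when a library was dropped, all but that of PWS-IC wild-type replicate 2, with log2 fold changes of -0.84 to -0.56 and adjusted p of up to 0.136. It also lost it without the filter on low counts (adjusted p = 0.0688), with DESeq2 (0.0622), with a replicate block (0.0543) and in 1 fit of 16 libraries (0.0528). Cldn11 lost its call without PWS-IC wild-type replicate 1 (adjusted p = 0.0523) or 4 (adjusted p = 0.0609).

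Mbp was lower on average in PWS-IC wild types, at 44.1 ± 4.71 CPM, than in Prepl wild types, at 58.4 ± 14.4 CPM, without passing (log2 -0.35, 95% interval -0.65 to -0.06; edgeR quasi-likelihood F-test, BH-adjusted p = 0.0752). It passed without Prepl wild-type replicate 3, the low library of that group (log2 -0.51; adjusted p = 0.00528), without the filter on low counts (log2 -0.35; adjusted p = 0.0160) and with a replicate block (log2 -0.33; adjusted p = 0.0306). The fit without the filter used a spread shared by genes of like level and not that of Mbp itself. Cnp was at -0.02 (95% interval -0.29 to 0.24), and Ugt8a and Mal were at -0.26 (-0.95 to 0.43) and -0.17 (-0.88 to 0.55). All 6 tested genes were below 0, with a median of -0.31 beside -0.00 over all genes. The wild types of these lines may differ in colony, age, dissection or day, none of which the labels give, and these cannot be told apart.

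Other lineage genes also differed between the wild types. Bmp4, a premyelinating marker, was at 2.84 to 4.73 CPM in PWS-IC wild types and 5.86 to 13.5 CPM in Prepl wild types, with no overlap (log2 -1.39 ± 0.278; edgeR quasi-likelihood F-test, BH-adjusted p = 0.000900). Lower in PWS-IC wild types too were Matn4 (-1.02 ± 0.230), the matrix protein gene Tnr (-0.46 ± 0.106), Nfasc (-0.46 ± 0.0946) and carbonic anhydrase Car2 (-0.70 ± 0.161). Higher there were the tetraspanin Cd9 (0.59 ± 0.120) and gelsolin, Gsn (0.71 ± 0.169). Each of these 7 calls was kept whichever library was left out.

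By list, 6 of 13 progenitor and premyelinating genes were called lower and 0 higher in PWS-IC wild types, with a median of -0.40. Among them, Itpr2 (-0.57 ± 0.167) lost its call without PWS-IC wild-type replicate 1 or Prepl wild-type replicate 1. The other structural myelin genes went both ways, 2 of 13 higher and 1 lower, and 2 of 15 other mature oligodendrocyte genes, 1 of 13 lipid synthesis genes and 1 of 10 transcription factors were lower. Tmem88b (-1.03 ± 0.369), the fatty acid elongase Elovl7 (-0.80 ± 0.289) and Olig2 (-0.38 ± 0.122) are the lower genes of these last lists, and dropping a library ended their calls in 6, 6 and 4 of 8 cases. Of the 7 other settings, Tmem88b kept its call in 1, and Elovl7 and Olig2 in 5 each. Blood genes (5 of 5 higher), choroid plexus genes (3 of 7 higher) and neuronal genes (4 of 12 lower) moved in the same libraries, with blood sums of 1796 to 3970 CPM in PWS-IC wild types against 660 to 1145 CPM in Prepl wild types. Choroid plexus sums were 1440 to 2214 CPM in PWS-IC wild types against 946 to 1491 CPM in Prepl wild types. Neuronal sums were 5051 to 5391 CPM against 5437 to 5706 CPM. Of 8 meningeal fibroblast genes 1 was called lower, with sums of 392 to 656 CPM against 470 to 617 CPM. Their part was not tested.

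**Figure D4:**
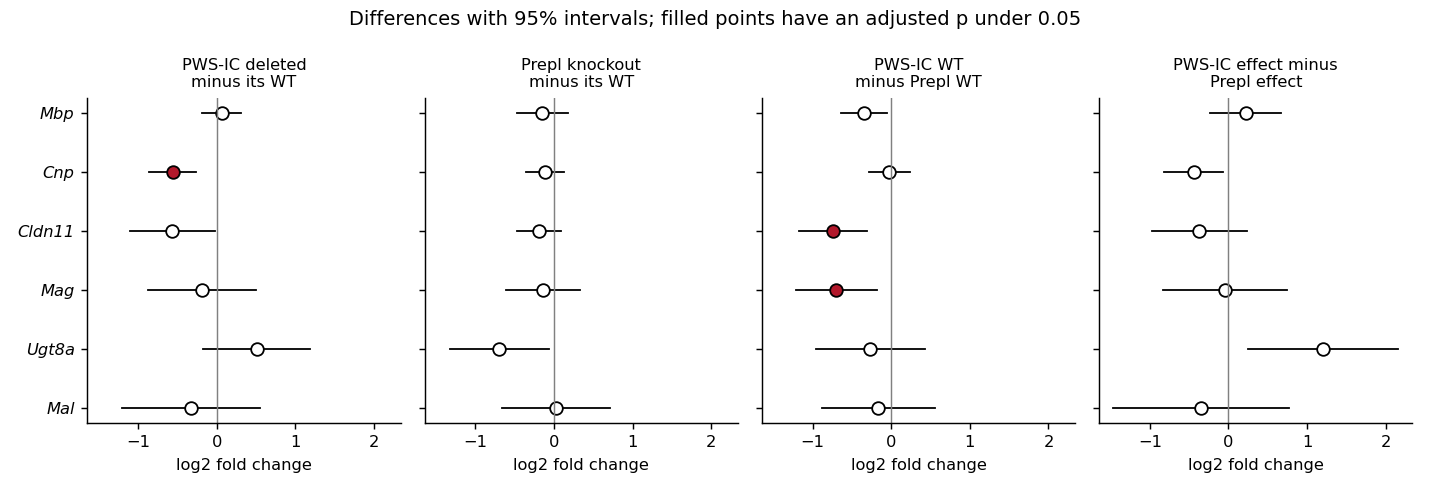
Log2 fold changes of the 6 tested genes with 95% intervals in the 3 comparisons and for the difference of the 2 mutant effects; filled points have an adjusted p under 0.05. Cnp is filled in the PWS-IC panel, Cldn11 and Mag in the panel of wild types, and Ugt8a lies furthest from 0 in the panel of differences, at 1.20.

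The 2 mutant effects were set against each other over all 16 libraries, since a call in one model and not in the other does not show that they differ. None of the 6 genes passed edgeR's quasi-likelihood test of the difference, 2 had an unadjusted p under 0.05, and DESeq2 also called 0, where edgeR called 0.778% of all genes. Ugt8a had the largest difference of the 6, its log2 fold change being 0.51 in PWS-IC deleted brains and -0.69 in Prepl knockouts (PWS-IC effect minus Prepl effect 1.20 ± 0.468, 95% interval 0.25 to 2.16; edgeR quasi-likelihood F-test, unadjusted p = 0.0153, BH-adjusted p = 0.281). Cnp differed by -0.44 ± 0.184 (95% interval -0.82 to -0.07; edgeR quasi-likelihood F-test, unadjusted p = 0.0228, BH-adjusted p = 0.325). The other 4 intervals all held 0. These values leave the mutant effects neither shown to differ nor shown to be alike.

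Mobp, Ermn and Mog are given as reads. Mobp, which codes for a basic protein of compact myelin, had 4, 7, 4 and 2 reads in PWS-IC deleted brains and 3, 2, 0 and 1 in PWS-IC wild types. Prepl knockouts had 0, 4, 5 and 10 reads of Mobp and Prepl wild types 16, 11, 3 and 7. As CPM of the pooled reads, the sum was 0.954 in PWS-IC deleted brains (95% interval 0.556 to 1.53) and 0.274 in PWS-IC wild types (0.101 to 0.597). It was 0.919 in Prepl knockouts (0.554 to 1.44) and 1.73 in Prepl wild types (1.22 to 2.39). These exact Poisson intervals cover counting error only. PWS-IC wild types thus had the lowest sum, and its interval did not meet that of the Prepl wild types. Tested without the filter on low counts, Mobp was lower in PWS-IC wild types than in Prepl wild types (log2 -2.55 ± 0.691; edgeR quasi-likelihood F-test, BH-adjusted p = 0.00308), a call lost without Prepl wild-type replicate 1 (adjusted p = 0.0836). That fit used a spread shared by genes of like level, so its p-value does not measure the spread of Mobp itself between libraries. With the filter 23.8% of all genes were called between these groups, and the share without it is not given here. Set against its own wild types in the same way, neither the PWS-IC deletion (1.75, adjusted p = 0.316) nor the Prepl knockout (-0.89, adjusted p = 0.717) passed.

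Ermn encodes ermin, a cytoskeletal protein of late oligodendrocytes. It had 1, 5, 1 and 5 reads in PWS-IC deleted brains, 14, 5, 1 and 4 in PWS-IC wild types, 9, 4, 5 and 4 in Prepl knockouts and 2, 4, 9 and 6 in Prepl wild types. Every group overlapped every other, and the counting intervals of the 4 group sums overlapped. It shares 237 exon bases with Galnt5 on the opposite strand, which had 6 reads in all. Mog, the myelin oligodendrocyte glycoprotein of the outermost myelin layer, had 0 reads in all 8 PWS-IC libraries, which at a limit of 3 reads over the group allows up to 0.168 CPM in the deleted group and 0.137 CPM in its wild types. It had 3 reads in Prepl knockouts, all in replicate 4, and 3 in Prepl wild types.

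Set in order of mean CPM, Prepl wild types were highest for Mbp, Cnp, Cldn11, Mag, Mal, Mobp and Mog, PWS-IC deleted brains for Ugt8a and PWS-IC wild types for Ermn. For Mal (2.89 against 2.84 CPM) and Mog (0.154 against 0.149 CPM, on 3 reads each) Prepl wild types and Prepl knockouts were nearly level. Neighbours in the order of means overlapped in every case but 1. Cnp in PWS-IC deleted brains, the lowest group, lay below the Prepl knockouts, the next one up (19.0 to 25.5 CPM against 28.2 to 32.2 CPM). The groups were ordered by these same values, and the share of all genes with such a gap was not computed.

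Within groups the 6 tested genes moved together only loosely. Pearson correlations of log2 CPM over 16 libraries, centred on the group means, ran from -0.36 to 0.67 over 15 pairs, with a median of 0.32 and 11 above 0. Cnp and Ugt8a were the closest pair (0.67), followed by Mbp and Cnp (0.55), while Cldn11 ran against Ugt8a (-0.36) and Mbp (-0.32). These points share library depth and composition and are given as a description. The 10 genes outside the 9 that followed their mean most closely, among 10255 genes ranked, were Cxx1b, Samd1, Rap1gds1, Arrdc4, Ndfip1, Tpi1, Atox1, Rad17, Rnf19b and 1110008P14Rik, with correlations of 0.83 to 0.89. None of these 10 belongs to the lineage lists. Cxx1b was the closest, at 0.89.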

How the data were processed

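RNA of 16 mouse brain libraries was measured with Lexogen QuantSeq, which captures poly(A) tails and reads transcript ends, per the labels' protocols. What the authors deposited are counts, a whole number of reads per gene symbol and library. HISAT2, HTSeq and mm10 are named per the submitters' processing notes; which versions, annotation and strand setting were used is not given in the sources used here. Rows that name no gene stayed out of library sizes and tests; per library they held 11.4% to 20.1% of tabled reads for alignments outside genes, 0.390% to 0.479% for ambiguous ones, 25.2% to 30.9% for multiple alignments and 10.9% to 13.8% for unaligned reads. Counts within groups differed by more than sampling noise (the lowest chi-square of a pair was 2.43 per degree of freedom).

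CPM were computed from reads in genes, 3477624 to 5852716 per library. Each comparison was fitted on its own 8 libraries, and the difference of the mutant effects on all 16, with edgeR 4.0.16 in R 4.3.3 (filterByExpr with a minimum count of 10 and total of 15, TMM, quasi-likelihood test, Benjamini-Hochberg adjustment over all genes tested, threshold 0.05), which was tested on simulated data. The value after ± of a log2 fold change is its standard error (|log2 fold change| over the root of F), that of a CPM its SD, and intervals are at 95%. Other settings were RLE factors, no filter, at least 1 CPM in 4 libraries, DESeq2 1.42.0, a replicate block, 1 fit of 16 libraries, that fit with a sex term, and leaving out each library; fits of Mobp without the filter that leave out a library were added once the data had been seen. Replicate numbers were not taken to pair the libraries, since no label says so and not every same-number correlation passed 0.1: they were -0.10 to 0.06 in the Prepl comparison and -0.10 to 0.01 between wild types. In the PWS-IC comparison they were 0.04, 0.32, 0.34 and 0.27 for replicates 1 to 4, and there the number goes with sex.

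The 9 genes and the lists of lineage and cell type markers were chosen with earlier results of these data known. A gene of the list of structural myelin genes is not reported here and is left out of that list. All 9 genes are named in every comparison. From each lineage list the text names up to 4 called genes with the smallest p per comparison, and from the wider data the 10 genes most correlated with the 9 at a mean log2 CPM of 3 or more. Sox10, Olig1, Pdgfra, Enpp6, Vcan, Fyn, Opalin, Klk6, Dnajc7 and Galnt5 were chosen after their values were seen where that rule does not name them. Positions are those of GENCODE for GRCm38, the assembly that mm10 denotes, and promoters those of RefSeq for GRCm38.p6.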

Additional observations from a re-analysis of the deposited data

Results flagged for a closer look

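Single libraries of 5 gene and group combinations lay farther from the other 3 than Dixon's 95% critical value allows. In all, 36 were considered, and chance flags about 1 in 20 where values are continuous. Mog had 0 reads in both PWS-IC groups and could not be flagged there. Cnp was flagged in 2 groups: PWS-IC deleted replicate 2, at 25.5 CPM, was above the other 3 deleted libraries, and Prepl knockout replicate 4, at 32.2 CPM, above the other 3 knockouts. Cldn11 in PWS-IC deleted replicate 3 was low, at 7.48 CPM. Ermn in Prepl knockout replicate 1, at 1.75 CPM, and Mog in Prepl knockout replicate 4, at 0.596 CPM, were high on 9 and 3 reads. Since the other Prepl knockouts had 0 reads of Mog, any read in replicate 4 would have been flagged.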

How the results depend on the processing

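Leaving out a library, the 9 genes gave 0 to 1 call in the PWS-IC comparison, 0 to 2 between wild types and 0 in the other comparisons, and all genes gave 362 to 653 calls (PWS-IC), 12 to 103 (Prepl), 2441 to 3506 (wild types) and 67 to 134 (difference of effects). Reversals there ran from -0.013 to 0.14 for Mbp and -0.34 to 0.040 for Mag in the PWS-IC comparison, -0.27 to 0.019 for Mag and -0.13 to 0.20 for Mal in the Prepl comparison, -0.091 to 0.046 for Cnp and -0.33 to 0.0095 for Mal between wild types, and -0.21 to 0.19 for Mag and -0.54 to 0.020 for Cldn11 in the difference; none was called in any of these fits. Of 162 values of the 6 tested genes under the other settings, 154 kept direction and side of the threshold and 2 reversed, Mal in the Prepl comparison (-0.32) and Mag in the difference (0.23), both with a sex term. Mobp, Ermn and Mog are not among these values.

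Counts over all genes without the filter were 945 (PWS-IC), 156 (Prepl) and 222 (difference). A single fit of 16 libraries gave 999 (PWS-IC) and 18 (Prepl), and 1 of the 9 genes between wild types, as did DESeq2. The sex term gave 1233 (PWS-IC) and 235 (difference), and DESeq2 170 (difference). A replicate block gave 989 (PWS-IC), 35 (Prepl), 3194 (wild types) and 96 (difference); under it Mag lost its call between wild types (adjusted p = 0.0543) and Mbp gained one (adjusted p = 0.0306), as both did without the filter (adjusted p = 0.0688 and 0.0160). The cause of these shifts was not tested. Cnp kept its PWS-IC call in all 7 settings other than leaving out a library. Depth limits Mobp, Ermn, Mog and Mal most, at 79, 79, 6 and 209 reads in all.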
